A study of Homo sapiens with 6 samples.

Results

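The troponin genes were measured on 6 Affymetrix arrays of human H295R/TR SF-1 cells, and they were chosen by the signal of TNNI3 on these same arrays, which differed widely between them. The list held the 8 genes of the 3 striated-muscle troponin subunits: TNNI1, TNNI2 and TNNI3 for troponin I, TNNT1, TNNT2 and TNNT3 for troponin T, and TNNC1 and TNNC2 for troponin C. All probe sets that the platform annotation assigns to these genes alone were taken, which gave 8 of 54613 probe sets and 7 of 8 genes, since TNNT2 had none and was not analysed here. H295R is a line from an adrenocortical carcinoma, and H295R/TR SF-1 is a subclone of it in which doxycycline (Dox) switches on a transgene for SF-1, a nuclear receptor encoded by NR5A1. Of the arrays, 3 were labelled as cells given Dox at 1 µg/mL for 72 h and 3 as cells of the same subclone in basal conditions for 72 h. All results therefore come from 1 subclone, and no array of cells without the inducible transgene was part of the comparison. Because the TNNI3 values chose the genes, they are given as a description without a test.

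Troponin is the calcium switch of striated muscle. It sits on the thin filament with actin and tropomyosin: troponin C binds calcium, troponin I holds back the actin-myosin interaction until calcium arrives, and troponin T anchors the complex on tropomyosin. The subunits come in isoforms that differ between slow skeletal, fast skeletal and cardiac muscle, and TNNI3 encodes the cardiac troponin I whose release into blood marks heart muscle injury. Steroid-producing adrenocortical cells have no sarcomeres.

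Arrays are called Dox 1 to Dox 3 and basal 1 to basal 3, by labelled group and order of deposition, which are not numbers in the labels. The arrays did not group by label. The array labelled Dox 1 and the one labelled basal 1 were nearly identical, with an SD of 0.134 for the difference in log2 signal over all probe sets and 0 probe sets more than 2-fold apart. The same held for the arrays labelled Dox 2 and basal 3 (SD 0.149, 0 probe sets), whereas arrays of 1 label differed with SDs of 0.258 to 0.452 and 525 to 2197 probe sets more than 2-fold apart. NR5A1 had signals of 5.55, 6.21 and 6.41 on the arrays labelled Dox 1 to 3, against 5.84, 5.92 and 6.30 on those labelled basal 1 to 3. It was above the yardstick of silent genes described below for TNNI3 on Dox 2, Dox 3 and basal 3 only, so its order among the other arrays says little. Over all probe sets the signals of Dox 3 and basal 2 were less spread out than on the other 4 arrays, and these are called the narrow array set. Array medians were 5.56 to 5.6 on the log2 scale. Each result is given for all 6 arrays by label, and for 4 arrays without Dox 1 and basal 3, where Dox 2 and Dox 3 were set against basal 1 and basal 2 within array sets. The choice of these 4 arrays followed from the data, so the p-values of the second comparison are not independent evidence. NR5A1 differed by 0.43 ± 0.14 (SE; limma, adjusted p = 0.132) in the 4 arrays. The study reports SF-1 overexpression after Dox in these cells by immunoblot, which measures protein. Whether the NR5A1 probe set detects the transcript of the transgene was not tested.

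TNNI3 (probe set 205742_at) had log2 signals of 7.40, 11.26 and 11.59 on the arrays labelled Dox 1, 2 and 3, against 7.37, 7.76 and 11.17 on those labelled basal 1, 2 and 3. The arrays fell into a high set of Dox 2, Dox 3 and basal 3 and a low set of Dox 1, basal 1 and basal 2, and the labelled groups overlapped. In RNA of whole cultures, more cells with the transcript and more transcript per cell cannot be told apart. The range of 4.22 over the arrays was the 6th widest of the 54613 probe sets. By label, TNNI3 averaged 10.09 ± 2.33 in the Dox arrays and 8.77 ± 2.09 in the basal arrays (SD, n = 3 each), with a difference of 1.32 ± 1.36 (SE). Without Dox 1 and basal 3 the difference was 3.86 ± 0.11 (SE), or 14.5-fold, and it was 3.89 between Dox 2 and basal 1 and 3.84 between Dox 3 and basal 2. The nearly identical arrays of opposite label differed by 0.03 (Dox 1 minus basal 1) and 0.09 (Dox 2 minus basal 3). Over the 15 pairs of arrays, 9 differed by 3.41 to 4.22, that is by 10.6- to 18.6-fold, and 6 differed by 0.03 to 0.42. The narrow array set lay slightly higher on both sides, by 0.33 in Dox 3 over Dox 2 and by 0.38 in basal 2 over basal 1.

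**Figure D1:**
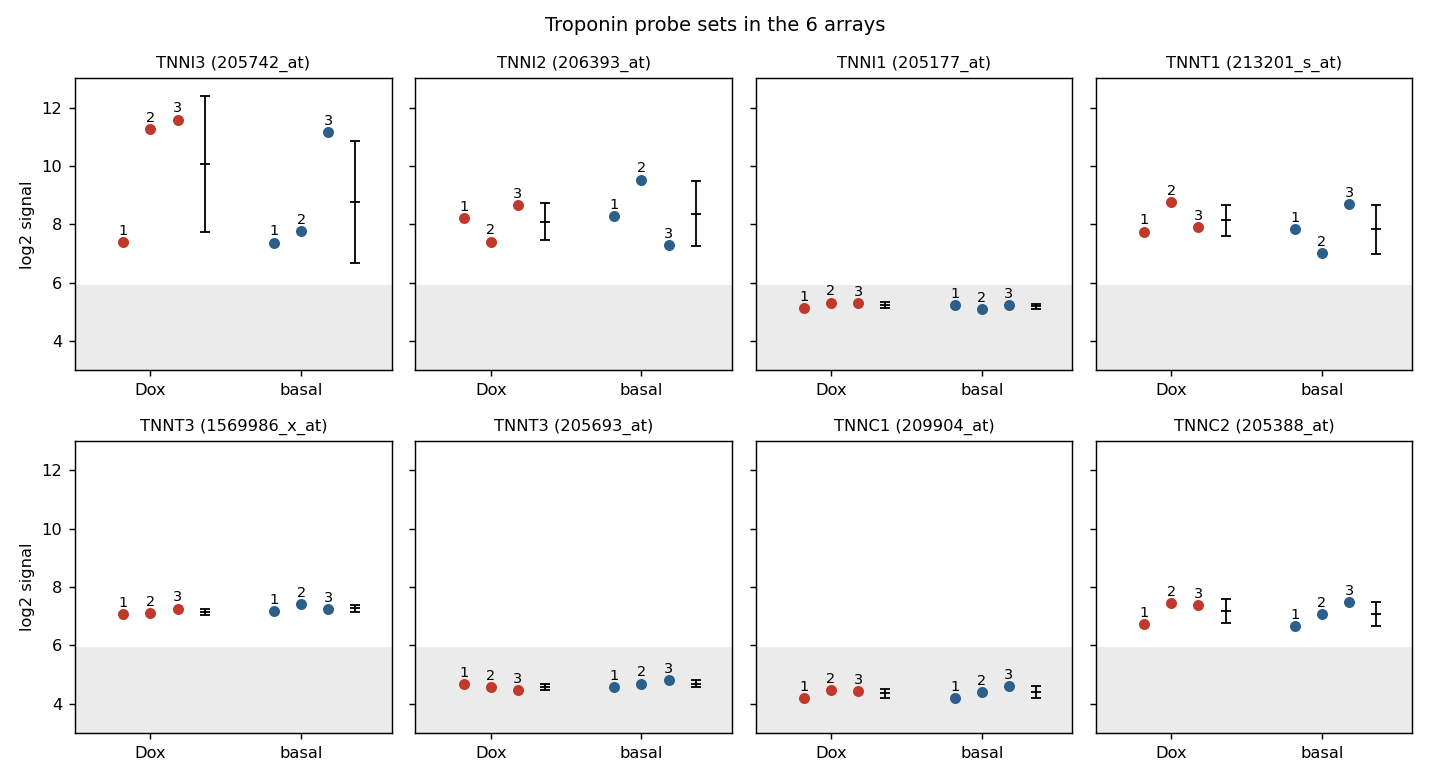
Log2 signal of the 8 troponin probe sets, 1 panel each, on the 3 arrays labelled Dox and the 3 labelled basal, with the mean and SD of each label beside the points and a grey band for signals under the lowest array's 95th percentile of olfactory receptor and hair keratin-associated genes. TNNI3 is near 11 on Dox 2, Dox 3 and basal 3 and near 7.5 on the other 3 arrays, while TNNI1, TNNC1 and 1 of the 2 TNNT3 probe sets stay in the grey band.

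Even on its low arrays TNNI3 was above the level of genes that adrenocortical cells are not known to use. As a yardstick served the 171 probe sets of 136 olfactory receptor and hair keratin-associated genes, whose 95th percentile was 5.97, 5.90 and 6.12 on the Dox arrays and 5.95, 6.27 and 5.95 on the basal arrays. The lowest TNNI3 signal, 7.37 on basal 1, exceeded each of these. Of the 8 troponin probe sets, 5 were above the yardstick on all 6 arrays and 3 were below it on all 6. Of all 54613 probe sets, 20353 were above it on all 6 arrays and 28948 were below it on all 6. TNNI3K, a kinase gene named for its product's binding to cardiac troponin I and not a troponin, had signals of 3.37, 3.50 and 3.15 on the Dox arrays and 3.10, 3.22 and 3.42 on the basal arrays, all under the yardstick.

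TNNI3 lies on the minus strand of chromosome 19 beside TNNT1, the gene of slow skeletal troponin T, with 0 protein-coding genes between them. Their promoters are shown because TNNT1 was the other troponin gene that was higher in the comparison of 4 arrays. The sequences are the 250 bases before the RefSeq gene start (GRCh38), 5′ to 3′ on the gene's strand, at chr19:55157733-55157982 for TNNI3 and chr19:55149207-55149456 for TNNT1. Capitals mark the letters AGATAA or, on the opposite strand, TTATCT, a form of the GATA factor motif.
TNNI3: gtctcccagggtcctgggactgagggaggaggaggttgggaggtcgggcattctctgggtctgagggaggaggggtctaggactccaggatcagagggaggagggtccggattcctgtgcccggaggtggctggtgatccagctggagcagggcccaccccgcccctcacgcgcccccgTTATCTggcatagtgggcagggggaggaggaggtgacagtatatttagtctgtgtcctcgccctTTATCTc
TNNT1: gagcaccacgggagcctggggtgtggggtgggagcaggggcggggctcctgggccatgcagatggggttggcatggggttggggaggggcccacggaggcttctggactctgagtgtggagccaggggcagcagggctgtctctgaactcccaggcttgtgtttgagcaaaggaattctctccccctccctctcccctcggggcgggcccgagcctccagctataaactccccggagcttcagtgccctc
The TNNI3 window held 2 such matches, with first bases at positions -71 and -7 from the gene start, and the TNNT1 window held 0. The window of TNNT2, which had no probe set assigned to it alone and is not shown, held 1 match, at position -225. Of 35116 promoter windows of this length, 9.17% held the motif and 0.803% held it at least 2 times. This motif was chosen after the TNNI3 sequence had been read. The letters CAAGGTCA, an SF-1 motif (TGACCTTG on the opposite strand), were in 1.14% of all windows and in neither the TNNI3 nor the TNNT1 window. The letters TTCAGCACC (GGTGCTGAA on the opposite strand), part of the site of the repressor REST, were in 0.288% of all windows and likewise in neither. Only exact matches of these letters were counted, so partial or variant sites were not searched for. No binding was measured, and a match of letters is a description of the sequence only.

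TNNT1 (213201_s_at) had log2 signals of 7.75, 8.75 and 7.91 on Dox 1, 2 and 3, against 7.83, 7.00 and 8.68 on basal 1, 2 and 3. The highest arrays were Dox 2 and basal 3, the lowest was basal 2, and the labelled groups overlapped. By label TNNT1 averaged 8.14 ± 0.54 in the Dox arrays and 7.84 ± 0.84 in the basal arrays (SD, n = 3 each), a difference of 0.30 ± 0.45 (SE) that did not pass the test (limma, adjusted p = 1). In the 4 arrays TNNT1 rose by 0.91 ± 0.13 (SE), or 1.88-fold (limma, adjusted p = 0.000454). It was higher by 0.92 in Dox 2 over basal 1 and by 0.91 in Dox 3 over basal 2. The array sets differed by nearly as much, since Dox 3 was 0.84 below Dox 2 and basal 2 was 0.84 below basal 1.

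**Figure D2:**
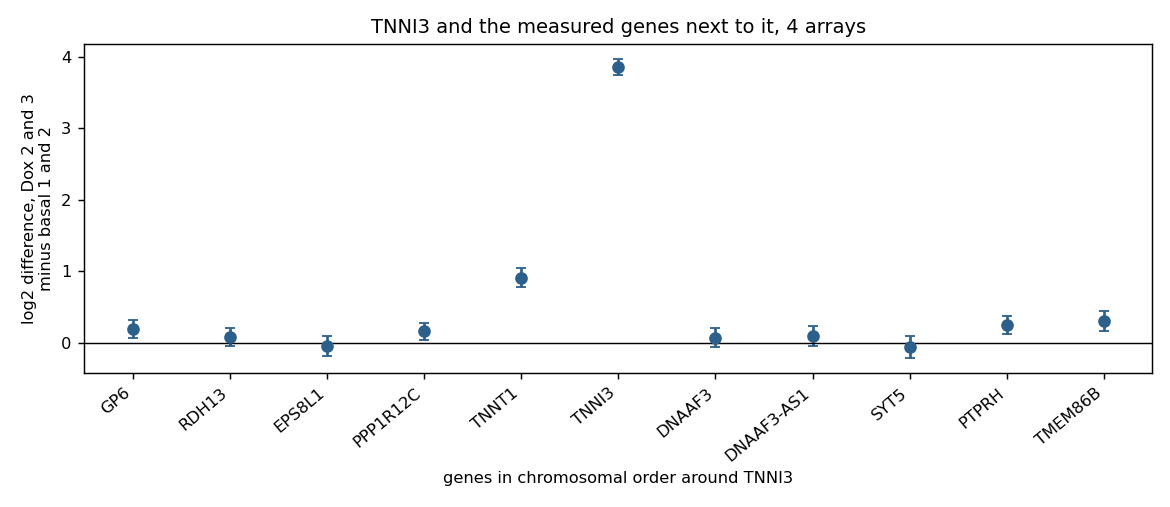
Difference in log2 signal between Dox 2 and 3 and basal 1 and 2, within array sets, with its SE, for the brightest probe set of TNNI3 and of the 5 genes on each side of it that have one, in their order on chromosome 19. TNNI3 stands at 3.86 and TNNT1 at 0.91, and the brightest probe sets of the other 9 genes lie between -0.06 and 0.30.

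Of the 10 genes with a probe set nearest to TNNI3, 5 on each side, 1 was called in the comparison of 4 arrays, which was TNNT1. Over all probe sets, 2.07% were called higher and 2.09% lower. DNAAF3, a gene for the assembly of ciliary dynein arms and the nearest on the other side of TNNI3, had signals of 6.93, 7.08 and 7.51 on Dox 1 to 3 and 7.03, 7.41 and 6.99 on basal 1 to 3, and differed by 0.07 in the 4 arrays. PPP1R12C, a regulatory subunit of protein phosphatase 1 on the other side of TNNT1, differed by 0.16 at its brightest probe set. Over all 19 probe sets of the 9 genes other than TNNT1, the differences were -0.17 (EPS8L1) to 0.30 (TMEM86B) and 0 were called (limma, adjusted p = 0.386 to 0.969). Given the shares over all probe sets, a count of 0 among so few says little.

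TNNI2 (206393_at), the troponin I of fast skeletal muscle, had log2 signals of 8.21, 7.41 and 8.66 on Dox 1, 2 and 3, against 8.28, 9.53 and 7.29 on basal 1, 2 and 3. It was highest on basal 2 and lowest on Dox 2 and basal 3, both of which were high for TNNI3, and the labelled groups overlapped. Dox 3, also high for TNNI3, had the next highest TNNI2 signal after basal 2. By label TNNI2 averaged 8.09 ± 0.63 in the Dox arrays and 8.37 ± 1.12 in the basal arrays (SD, n = 3 each), a difference of -0.27 ± 0.57 (SE) that did not pass the test (limma, adjusted p = 1). In the 4 arrays TNNI2 fell by 0.86 ± 0.12 (SE), or 1.82-fold (limma, adjusted p = 0.000487), with a difference of -0.86 both for Dox 2 minus basal 1 and for Dox 3 minus basal 2. Between the array sets TNNI2 differed by more than between the labels: Dox 3 was 1.25 above Dox 2 and basal 2 was 1.25 above basal 1. TNNI1 (205177_at), the troponin I of slow skeletal muscle, stayed between 5.10 and 5.32 on the 6 arrays, under the yardstick and the array median on each. Its difference in the 4 arrays was 0.13 ± 0.14 (SE; limma, adjusted p = 0.788). A signal in that range does not show expression, and a change of TNNI1 was not detectable here.

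TNNT3, the troponin T of fast skeletal muscle, had 2 probe sets. The set 1569986_x_at had signals of 7.08, 7.11 and 7.26 on the Dox arrays and 7.17, 7.41 and 7.25 on the basal arrays, above the yardstick on all 6, whereas 205693_at lay between 4.47 and 4.81, below it on all 6. The differences in the 4 arrays were -0.11 ± 0.13 and -0.11 ± 0.14 (SE; limma, adjusted p = 0.829 and 0.831). The 2 probe sets disagree on whether TNNT3 is above the silent genes, and probes with an x in their name can bind other transcripts.

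TNNC2 (205388_at), the fast skeletal calcium-binding subunit, had log2 signals of 6.72, 7.45 and 7.38 on Dox 1, 2 and 3, against 6.66, 7.07 and 7.49 on basal 1, 2 and 3. Its highest arrays were the 3 on which TNNI3 was high and its lowest were Dox 1 and basal 1, so the labelled groups overlapped. By label TNNC2 averaged 7.18 ± 0.40 in the Dox arrays and 7.08 ± 0.41 in the basal arrays (SD, n = 3 each), a difference of 0.11 ± 0.28 (SE; limma, adjusted p = 1). In the 4 arrays the difference was 0.55 ± 0.15 (SE), or 1.46-fold, just outside the threshold (limma, adjusted p = 0.0544), and it was 0.79 for Dox 2 minus basal 1 and 0.31 for Dox 3 minus basal 2. With 1 probe set per gene the adjusted p was 0.0456, and with dim probe sets removed it was 0.0118, so TNNC2 was called under both of these settings. TNNC1 (209904_at), which encodes the troponin C of heart and slow skeletal muscle, the partner of TNNI3 in heart muscle, lay between 4.19 and 4.61, below the yardstick on all 6 arrays. Its difference in the 4 arrays was 0.16 ± 0.14 (SE; limma, adjusted p = 0.737).

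**Figure D3:**
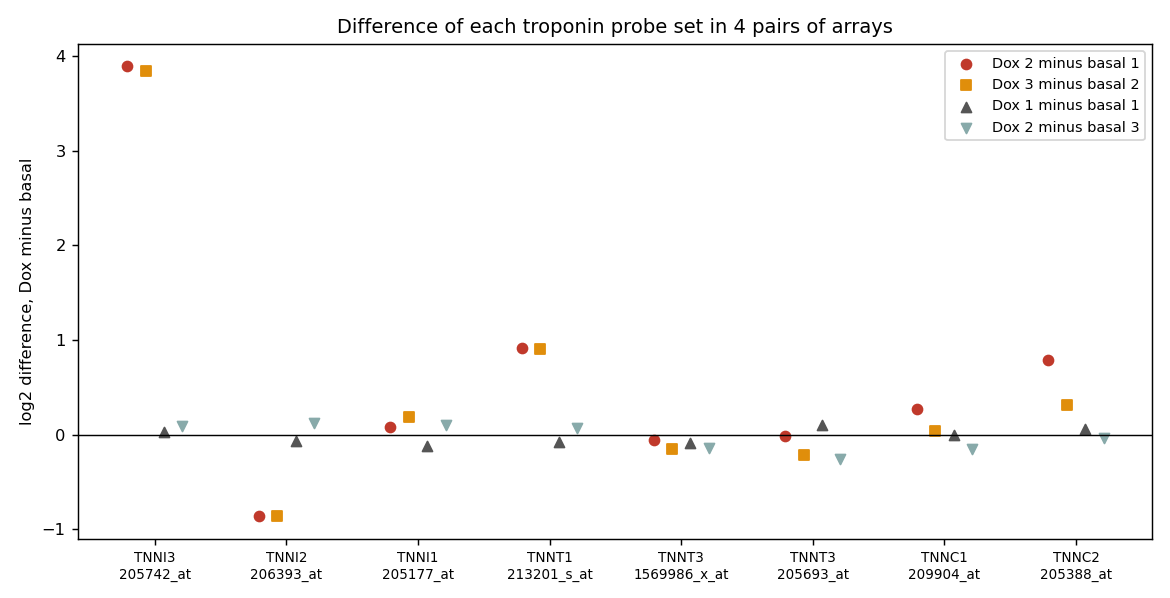
Difference in log2 signal of each troponin probe set for 4 pairs of arrays: Dox 2 minus basal 1 and Dox 3 minus basal 2, the pairs within array sets, and Dox 1 minus basal 1 and Dox 2 minus basal 3, the nearly identical arrays of opposite label. TNNI3 differs by 3.89 and 3.84 in the first 2 pairs and by 0.03 and 0.09 in the last 2, and TNNT1 and TNNI2 differ by about 0.9 up and 0.9 down in the first 2 only.

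By label, 0 of the 7 troponin probe sets other than TNNI3 were called, as were 0 of all 54613 (limma, 0% called, with 0 and 373 at an unadjusted p under 0.05). Evenly spread p-values would put more probe sets under 0.05 than these 373, and than the 518 and 1580 given below. The labelled groups overlapped for all 8 troponin probe sets, where 3.81% of all probe sets did not overlap. In the 4 arrays 1 of the 7 was higher (TNNT1) and 1 was lower (TNNI2), where 2.07% of all probe sets were higher and 2.09% were lower. The median difference of the 7 probe sets was 0.13, against 0.00 over all probe sets. That median is the value of TNNI1, which lay under the yardstick on all 6 arrays. Every call in the 4 arrays rests on which arrays were left out and on the block. With basal 1 and Dox 2 left out in place of basal 3 and Dox 1, 0 probe sets were called (limma, 518 at an unadjusted p under 0.05). The differences were then 0.04 for TNNI3, -0.01 for TNNT1 and 0.02 for TNNI2. Since Dox 1 is nearly identical to basal 1, and basal 3 to Dox 2, Dox 1 minus basal 3 nearly reverses Dox 2 minus basal 1. This alternative was therefore bound to cancel much of each difference, and it is not an independent check. Without the block for the array set, 0 probe sets were called too (limma, 1580 at an unadjusted p under 0.05). Across the 6 arrays, which hold 2 nearly identical pairs and so are not 6 independent points, Pearson's r with TNNI3 was 0.934 for TNNC2, 0.819 for TNNC1, 0.746 for TNNI1, 0.71 for TNNT1, -0.507 for TNNI2 and -0.00864 and -0.167 for the TNNT3 probe sets. TNNC1 and TNNI1 are under the yardstick, where a correlation has little to rest on.

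Genes for other parts of the sarcomere were read from lists to see whether TNNI3 was accompanied by its partners. Of 46 probe sets for tropomyosins, actins and other thin-filament proteins, 2 were higher and 2 lower in the 4 arrays, close to the 2.07% and 2.09% of all probe sets, with a median difference of -0.01. Both of the higher ones belonged to TMOD1, which caps the pointed end of actin filaments: 203661_s_at had 7.02, 7.93 and 7.61 on Dox 1 to 3 and 7.05, 6.57 and 7.97 on basal 1 to 3 and rose by 0.96 ± 0.13 (SE; limma, adjusted p = 0.000454). Both of the lower ones belonged to NEBL, a nebulin-like actin-binding protein, of which 203962_s_at fell by 1.07 ± 0.14 (SE; limma, adjusted p = 0.000259). Its signal on Dox 3, 5.91, was under the yardstick. The tropomyosins, on which troponin T sits, gave 0 calls.

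Among 32 probe sets of sarcomeric myosins and thick-filament proteins, 2 were higher (MYH6 and MYH3) and 2 lower (both of MYH7B), with a median difference of -0.01 (all probe sets: 2.07% higher, 2.09% lower). MYH6, the alpha heavy chain of cardiac myosin, had log2 signals of 5.12, 6.82 and 6.99 on Dox 1, 2 and 3, against 5.34, 5.83 and 6.97 on basal 1, 2 and 3. Its high arrays were the same 3 as those of TNNI3, and it rose by 1.32 ± 0.14 in the 4 arrays (SE; limma, adjusted p = 6.08e-05), with 3 of 6 arrays above the yardstick. MYH3, the embryonic heavy chain, rose by 0.63 ± 0.14 (SE; limma, adjusted p = 0.0163), with 4 of 6 arrays above the yardstick and Dox 3 (6.02) and basal 2 (5.43) under it. TNNI3, TMOD1, MYH6, PRKCD and SOX6 are among the genes that the study lists as changed on these arrays, so their direction here is not independent evidence.

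Z-disc and linker proteins gave 0 higher and 3 lower of 40 probe sets, against 2.07% and 2.09% of all probe sets, with a median difference of -0.05. MYOT, myotilin of the Z-disc, had log2 signals of 8.07, 6.53 and 5.44 on Dox 1, 2 and 3, against 8.15, 6.56 and 6.44 on basal 1, 2 and 3, and it fell by 1.37 ± 0.15 in the 4 arrays (SE; limma, adjusted p = 6.49e-05). ACTN2, the alpha-actinin of the muscle Z-disc, fell by 0.60 ± 0.15 (SE; limma, adjusted p = 0.0346) and PDLIM3 by 0.54 ± 0.14 (SE; limma, adjusted p = 0.0499). PDLIM3 was above the yardstick on 3 of 6 arrays, and MYOT on 5 of 6, with Dox 3 under it. Of 40 probe sets for calcium storage, release and uptake in muscle, 0 were higher and 2 lower (all probe sets: 2.07% and 2.09%), with a median difference of 0.01, and both belonged to ATP2A3, a calcium pump of the endoplasmic reticulum. Its brighter probe set fell by 0.75 ± 0.12 (SE; limma, adjusted p = 0.00209).

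**Figure D4:**
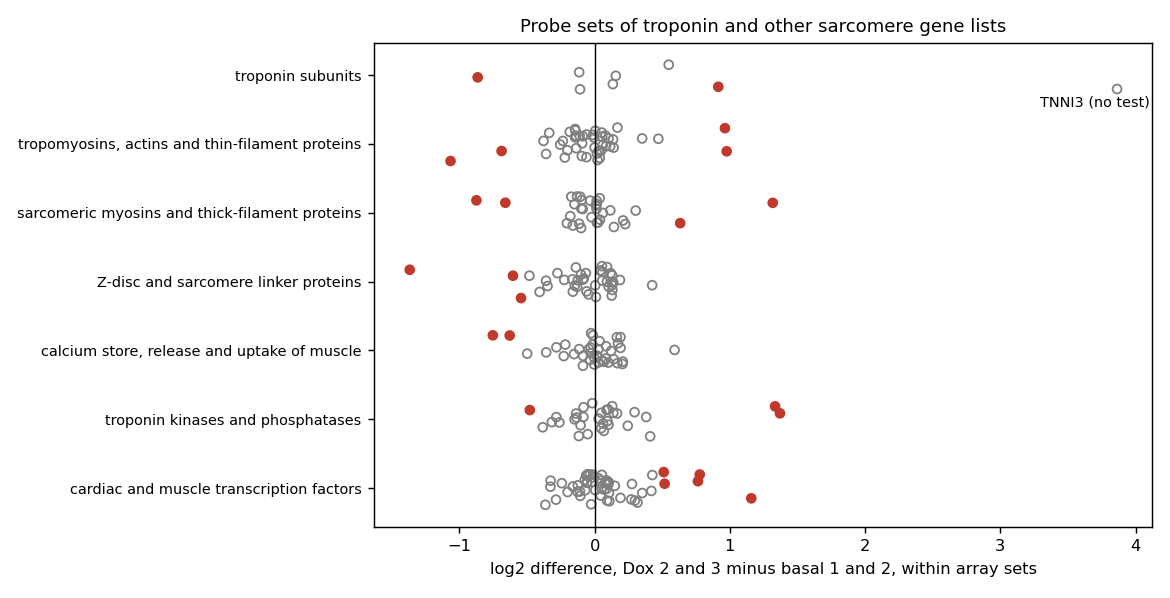
Difference in log2 signal between Dox 2 and 3 and basal 1 and 2, within array sets, for every probe set of 7 gene lists, 1 point each, filled where limma called it. Apart from TNNI3 at 3.86, the points of all lists lie between about -1.4 and 1.4, and most of them near 0.

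Of 32 probe sets for kinases and phosphatases that act on troponin, 2 were higher and 1 lower (all probe sets: 2.07% and 2.09%), with a median difference of 0.05. PRKCD, a protein kinase C isoform, had log2 signals of 7.23, 8.65 and 9.19 on Dox 1, 2 and 3, against 7.37, 7.73 and 8.58 on basal 1, 2 and 3, and rose by 1.37 ± 0.13 in the 4 arrays (SE; limma, adjusted p = 1.13e-05). PRKCA, another isoform, rose by 1.33 ± 0.18 (SE; limma, adjusted p = 0.000307), with 0.89 for Dox 2 minus basal 1 and 1.77 for Dox 3 minus basal 2. Its signal on basal 2, 5.92, was under that array's yardstick of 6.27, and basal 2 minus basal 1 was -1.47. PRKD1 fell by 0.48 ± 0.12 (SE; limma, adjusted p = 0.0361). Of 54 probe sets for cardiac and muscle transcription factors, 5 were higher and 0 lower, with a median difference of 0.05, where 2.07% and 2.09% of all probe sets were higher and lower. These were 1 each of GATA4, MEF2D and TEAD4 and 2 of SOX6. The TEAD4 call was on a dimmer probe set, and the brightest TEAD4 set was not called. The SOX6 sets were dim, above the yardstick on 0 and 3 of the 6 arrays, and its brightest set differed by 0.42 and was not called (limma, adjusted p = 0.115). GATA4, a GATA factor of heart, gonad and adrenal cells, had log2 signals of 6.49, 7.12 and 7.24 on Dox 1, 2 and 3, against 6.61, 6.72 and 7.11 on basal 1, 2 and 3, and rose by 0.51 ± 0.13 in the 4 arrays, close to the threshold (SE; limma, adjusted p = 0.0474).

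Of 21 probe sets of 12 muscle markers, 0 were higher and 2 lower in the 4 arrays (ACTN2 and MB), against 2.07% and 2.09% of all probe sets. On all 6 arrays 13 of the 21 were below the yardstick, as were 53.0% of all probe sets, and 5 were above it, as were 20353 of all 54613. By the brightest probe set of each marker, ACTN2, MB, MYL3, MYOD1 and TTN were above the yardstick on every array, DES on 4 and NPPA on 1, while CKM, MYOG, MYL2, NPPB and MYH7 were below it on every array. The summed linear signal of the brightest probe set of each of the 12 markers was 1310, 1130 and 1080 on Dox 1 to 3 and 1330, 1420 and 1110 on basal 1 to 3. The 3 lowest sums were on the 3 arrays with the lowest MB, myoglobin, and without MB the sum was 797, 821 and 787 on Dox 1 to 3 and 830, 892 and 802 on basal 1 to 3. The part of muscle transcripts in the TNNI3 values was not tested. MB fell by 0.74 ± 0.12 (SE; limma, adjusted p = 0.00185). Among adrenal cortex markers, by the brightest probe set of each, STAR, CYP11A1, CYP17A1, FDX1, SCARB1, SULT2A1 and MRAP were above the yardstick on all 6 arrays. CYP11B1, MC2R and INHA were below it on all 6, and HSD3B2 and NR5A1 were above it on 3. Of the 25 adrenal probe sets, 3 were higher (2 of SULT2A1 and 1 of SCARB1) and 3 lower (HSD3B2, MRAP and STAR) in the 4 arrays, against 2.07% and 2.09% of all probe sets. The SCARB1 and MRAP calls were on dimmer probe sets, that of MRAP under the yardstick on all 6 arrays, and the brightest sets differed by -0.09 (SCARB1; limma, adjusted p = 0.767) and -0.47 (MRAP; limma, adjusted p = 0.115).

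The genes whose pattern was most like that of TNNI3 were taken among the 204 genes with a range of at least 2 log2 units over the 6 arrays, by Pearson's r. HES6, a transcriptional regulator of the HES family, had r = 0.999, with log2 signals of 7.93, 10.02 and 10.22 on Dox 1, 2 and 3 and 7.93, 8.25 and 10.03 on basal 1, 2 and 3. The next were ABCG1 and ELOVL3 (0.998 each), CCM2L (0.997), IKBKE (0.995), MMRN2 (0.993), TUBB2A (0.992) and FOXO4 (0.991). ABCG1 exports cholesterol and ELOVL3 elongates fatty acids. The most opposite were LRRC17 (-0.996), IGFBP7 (-0.985), SHOC1 (-0.977) and LRRC3B (-0.959). None of these 12 genes is on the sarcomere lists. Because 2 pairs of arrays are nearly identical, values of r this close to 1 or -1 describe a common split of the arrays into the same 2 sets.

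**Figure D5:**
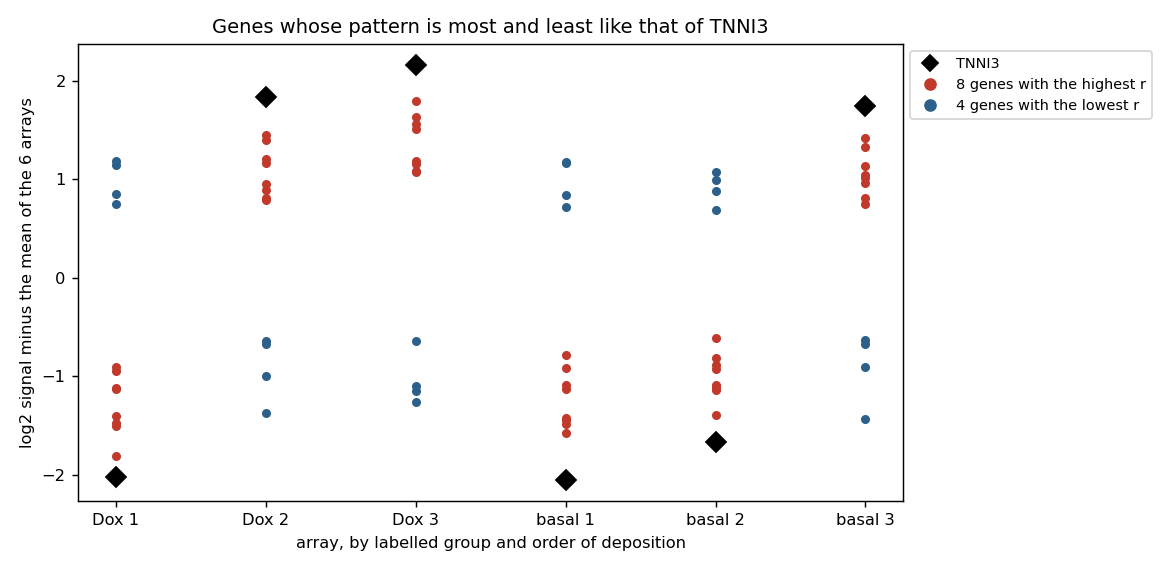
Log2 signal minus the mean of the 6 arrays for TNNI3 (black diamonds), the 8 genes with the highest r with it (red) and the 4 with the lowest r (blue), on each array. All 9 high-r genes, TNNI3 included, are above their mean on Dox 2, Dox 3 and basal 3 and below it on Dox 1, basal 1 and basal 2, and the 4 low-r genes are the other way round.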

How the data were processed

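RNA of H295R/TR SF-1 cells was hybridised to 6 Affymetrix HG-U133 Plus 2.0 arrays, 3 labelled Dox and 3 labelled basal, which the study describes as biological replicates. The authors deposited log2 values, 1 for each probe set on each array. The submitters' processing notes name GCRMA, without a version, and the methods name Affymetrix Command Console and Expression Console. A joint normalization of the 6 arrays is not given in the sources used here. Values were neither rescaled nor filtered. The platform annotation gave 1 gene symbol for 41091 of 54613 probe sets, several for 1801 and none for 11721, and only probe sets with 1 symbol were named.

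Groups were compared with limma 3.58.1 (lmFit, then eBayes with trend, two-sided) under R 4.3.3 over all probe sets, with Benjamini-Hochberg adjustment and a threshold of 0.05. The SE is limma's moderated one. The comparison of 4 arrays had the array set as a block and 1 residual degree of freedom. The number of arrays limits the precision. Only fits with the array set as a block were tested on simulated data, which had independent noise on each array and no nearly identical pairs. The comparison by label, which had no block, was not tested in this way.

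Members, gene lists and tests were chosen with earlier results of these data known. Named genes were all troponin probe sets, NR5A1, the 5 genes with a probe set on each side of TNNI3, the 8 genes with the highest and 4 with the lowest r, and at most 4 members of each list, those of widest range. TNNI3K, PRKD1, MEF2D, TEAD4 and other called list members were added after their values were seen. Promoter sequences and gene order are from RefSeq (GRCh38), and promoters of 3 of the 8 troponin genes were used here. Alternatives were 1 probe set per gene, quantile normalization, no trend, a filter on low values, each array left out, other blocks, and basal 1 and Dox 2 left out in place of basal 3 and Dox 1. Figures were drawn with matplotlib 3.10.9.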

Additional observations from a re-analysis of the deposited data

How the results depend on the processing

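By label, 0 probe sets were called under every alternative run, with 31 to 1227 at an unadjusted p under 0.05, and 0 of the troponin probe sets other than TNNI3. Evenly spread p-values would put more under 0.05 in each run. With each array left out in turn the counts of calls were again 0 and 0. The TNNI3 difference then ranged from 0.57 (without Dox 3) to 2.66 (without Dox 1), against 1.32 with all 6. In the comparison of 4 arrays, 2269 probe sets and 2 troponin probe sets other than TNNI3 were called. With 1 probe set per gene 1383 of 19775 genes and 3 troponin genes were called, and with dim probe sets removed 2741 of 27307 and 3 troponin probe sets. In both cases TNNC2 was the one added. Without the array-set block 0 probe sets were called (limma, 1580 at an unadjusted p under 0.05), and the troponin calls were 0. With the label style of the sample titles as the block, basal 1 was the only one of the 4 arrays in its style. That fit therefore set Dox 2 and Dox 3 against basal 2 alone, across array sets. The differences were then 3.67 for TNNI3, -1.49 for TNNI2, 1.33 for TNNT1 and 0.34 for TNNC2. With basal 1 and Dox 2 left out in place of basal 3 and Dox 1, 0 probe sets were called (limma, 518 at an unadjusted p under 0.05), 0 of them troponin. The differences were 0.04 for TNNI3, 0.02 for TNNI2 (reversed), -0.01 for TNNT1 (reversed) and -0.23 for TNNC2. As described above, the nearly identical arrays of opposite label made such cancelling follow from the choice of arrays. The cause of their near identity was not tested.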
